A study of Mus musculus with 8 samples.

Results

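The genes described here build and maintain mitochondria from the nuclear side. They encode the protein import machinery of the outer and inner membrane, the proteins that fuse and divide mitochondria, 2 inner membrane proteases, 3 matrix chaperones and 3 regulators of mitochondrial transcription and biogenesis. Members were all protein coding genes whose symbol starts with Timm or Tomm and a digit, plus Mfn1, Mfn2, Opa1, Oma1, Yme1l1, Dnm1l, Fis1, Mff, Hspa9, Hspd1, Hspe1, Tfam, Ppargc1a and Ppargc1b. This took 38 of the 39179 genes in the count table, of which 22740 are protein coding. Timm29, a subunit of the carrier translocase, was not found under that symbol and was not analysed here.

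The RNA came from mouse pancreatic epithelial cancer cells of FVB/B6 mix background, whose genotype includes p48Cre, ROSA_rtTAL+ and p53L+. In such cells Cre is driven by the pancreatic gene p48 (Ptf1a), and rtTA switches on tet-responsive alleles in the presence of doxycycline. The cells carried a green fluorescent label and were cultured for 72 h with red-labelled pancreatic stellate cells (PSC), which resemble fibroblasts, in medium containing 0.5% dialyzed serum. In 1 arm (4 libraries) a neutralizing antibody against the secreted signalling protein sonic hedgehog (SHH) was present at 20 µg/mL, and in the other arm (4 libraries) it was left out. The green cells were isolated by flow sorting and their polyA RNA was sequenced, with 4 biological samples per arm in the labels. The labels name no control antibody, do not say whether the cells are 1 clone and do not state the doxycycline status. All 8 libraries share the whole genotype, the p53 allele included, and the stellate cells. The comparison asks only what differed when the SHH antibody was present in that setting. Without a control antibody, neutralized SHH and an effect of added antibody as such cannot be told apart.

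Nearly all mitochondrial proteins are made in the cytosol as precursors. They pass the outer membrane through the TOM complex, and then reach the matrix through TIM23 with the pulling force of the chaperone mtHsp70, or the inner membrane through TIM22 with the help of small TIM chaperones in the intermembrane space. Mitofusins and OPA1 fuse the outer and inner membranes, DRP1 with its receptors divides them, and the proteases OMA1 and YME1L cut OPA1 and thereby set the balance. PGC-1 coactivators and TFAM drive the expression of nuclear and mitochondrial genes of the organelle.

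Library facts bear on every value below. Gene-assigned counts ranged from 14953255 to 15733280 with antibody and from 10009711 to 14602784 without, so that each antibody library was deeper than each of the others (two-sided exact permutation p = 0.0286, the smallest that 70 assignments can give, and 0.229 after Benjamini-Hochberg adjustment over 8 library measures). Within the arm without antibody, replicates 2 and 3 differed by a chi-square per degree of freedom of 1.77, whereas replicate 4 differed from them by 3.88 to 4.54 and replicate 1 from the other libraries by 9.06 to 11.2. The 6 pairs of antibody libraries lay between 1.72 and 3.70, and no pair agreed within sampling noise. Replicate 1 without antibody also held the largest share of mitochondrially encoded mRNA, at 6.21% of counts, where the arm means were 4.35% ± 0.37 with antibody and 4.78% ± 0.97 without (SD, n = 4). The 6 epithelial markers, led by Krt18, Krt8 and Krt19, took 0.571% ± 0.014 and 0.553% ± 0.040 of counts (exact permutation p = 0.429, n = 4). The 12 stellate markers took 0.00259% to 0.00527% with antibody and 0.00262% to 0.00463% without, with Dcn and Lum at 0 in all libraries. Of the 5 stellate markers tested, Pdgfra was called lower with antibody, while Col1a1, Col1a2, Col3a1 and Pdgfrb had log2 fold changes of 0.36 to 0.66 without a call, so that the list's median was 0.47. Of the 6 epithelial markers 3 had positive and 3 negative log2 fold changes, and Epcam was called higher. The part of these markers in the members' values was not tested. Leukocyte, endothelial and acinar markers took at most 0.000655%, 0.00142% and 0.00046% of counts in any library.

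The 35 members above the filter on low counts moved little with the SHH antibody. Only Timm10, which encodes a small TIM chaperone of the intermembrane space, was called at an adjusted p under 0.05 (edgeR quasi-likelihood F test, Benjamini-Hochberg adjustment over 13626 genes), and it was lower with antibody. In RNA from a sorted population, fewer cells with a transcript and less of it per cell cannot be told apart. The 1 call is 2.86% of the members, where 8.4% of all genes tested were called, 4.53% as higher and 3.87% as lower. At an unadjusted p under 0.05 there were 3 members, Timm10, Timm13 and Hspa9. The log2 fold changes (antibody over no antibody) ran from -0.40 for Timm10 to 0.33 for Ppargc1b, with 14 above and 21 below 0. Their median was -0.03, beside -0.00 over all genes. The median size of the log2 fold change, without its sign, was 0.0694 for the members and 0.0832 over the 12443 genes with a mean level in the members' range of 1.55 to 890 CPM. CPM here are counts relative to a TMM-scaled library total, and 8.98% of the genes in that range were called.

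These small differences were measured with fair precision. For 30 of the 35 members the whole 95% interval of the fold lay within 1.25-fold of no change in either direction, and for 33 within 1.5-fold. Over all genes in the members' range of CPM, 8517 of 12443 lay within 1.25-fold. The arms did not overlap in CPM for 1 member, again Timm10, where 14.3% of all genes tested showed such a separation. As a share of all counts the members together took 0.33% ± 0.0025 with antibody and 0.337% ± 0.013 without (SD, n = 4).

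**Figure D1:**
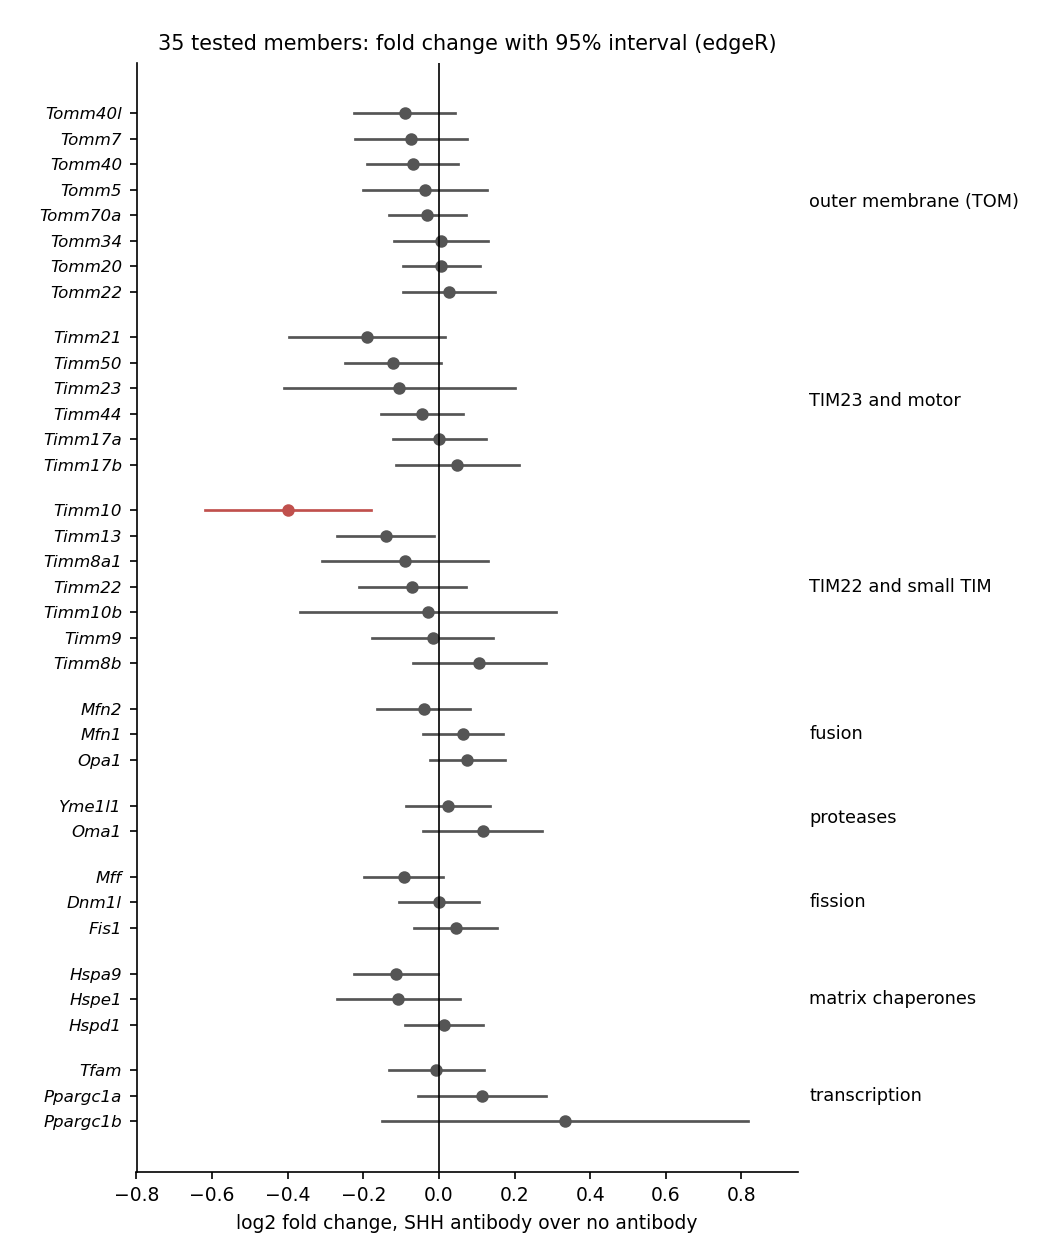
Log2 fold change (antibody over no antibody, horizontal axis) of the 35 tested members with 95% intervals from edgeR, grouped by role. Timm10, in red, is the only called member, at -0.40; the intervals of Timm13 and Hspa9 end just below 0, those of the other members include 0, and Ppargc1b has the widest.

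The members grouped with the outer membrane translocase showed no called gene among 8 tested. Tomm20, a receptor that recognises presequences and a common marker of the organelle, stood at 105, 100.3, 108 and 109 CPM in antibody replicates 1 to 4 and at 109, 101, 102 and 109 CPM in the others. The arms cover the same range, and the fold change was 0.01 ± 0.05 (log2, SE; edgeR adjusted p = 0.962), with a 95% interval from 0.936-fold to 1.08-fold. Tomm70a, the receptor for carrier precursors and for precursors handed over by cytosolic chaperones, had 255 to 271 CPM with antibody and 251 to 289 CPM without. Tomm22, the central receptor, and Tomm40, the channel itself, gave log2 fold changes of 0.03 and -0.07. The small subunits Tomm5 and Tomm7 gave -0.04 and -0.07, Tomm34, a cytosolic cochaperone, gave 0.01, and Tomm40l, a paralog of the channel, gave -0.09. Adjusted p-values of these 8 genes lay between 0.455 and 0.972 (edgeR).

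Of the TOM members, 2 fell under the filter. Tomm20l, a paralog of Tomm20, had 0 counts in every library. Tomm6, a small subunit that stabilises the channel, was listed with 6, 2, 3 and 5 reads in the antibody libraries and 3, 9, 0 and 4 in the others, too few for a comparison. By the gene coordinates in the authors' count table, 94.7% of the span of Tomm6 lies within Gm21981 on the same strand. Reads that fit more than 1 gene may have been set aside by the authors' counting, which is not described in the sources used here.

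The presequence translocase TIM23 had 0 called genes among 6. Timm50, the receptor that hands precursors from TOM to TIM23, was at 42.1, 41.3, 37.8 and 38.3 CPM with antibody and at 40.8, 45.5, 46.0 and 41.8 CPM without. The lowest values without antibody overlap the highest with it (log2 fold change -0.12 ± 0.06, SE; edgeR adjusted p = 0.255). Timm21, which links TIM23 to TOM and to the respiratory chain, had 21.8, 18.7, 19.9 and 19.7 CPM against 27.7, 22.4, 17.7 and 23.0 CPM. Its largest value belongs to replicate 1 without antibody and its smallest to replicate 3 of the same arm, and the fold change of -0.19 ± 0.10 did not pass (log2, SE; edgeR adjusted p = 0.279). The channel partners Timm17a and Timm17b gave log2 fold changes of 0.00 and 0.05, and Timm44, the anchor of the import motor, gave -0.04. Timm23, the channel, was counted at only 35 to 78 reads per library and gave -0.10 ± 0.15 (log2, SE), with an interval from 0.752-fold to 1.15-fold.

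Among the 7 tested genes of the TIM22 pathway and the small TIM chaperones, Timm10 (ENSMUSG00000027076, chromosome 2, 84826997 to 84830213, plus strand, GRCm38) fell with antibody. It had 144, 142, 151 and 167 counts in the antibody libraries and 192, 121, 120 and 194 in the shallower libraries without antibody. Scaled for depth these are 9.26, 9.02, 9.94 and 11.2 CPM against 15.0, 12.1, 11.2 and 13.3 CPM. The arms only just separate, since the highest antibody library reached 11.21 CPM and the lowest library without antibody 11.24 CPM.

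Mean levels of Timm10 were 9.86 ± 0.98 and 12.9 ± 1.6 CPM (SD, n = 4), a log2 fold change of -0.40 ± 0.11 (SE), or 0.759-fold with a 95% interval from 0.651-fold to 0.884-fold (edgeR adjusted p = 0.0203). The call is fragile. It was lost when antibody replicate 1, 2 or 3 or replicate 1 or 4 without antibody was left out, with adjusted p over the 8 such edgeR fits between 0.0121 and 0.0817 and log2 fold changes between -0.46 and -0.32. Replicates 1 and 4 without antibody, which stand apart from replicates 2 and 3 over all genes, hold the highest Timm10 levels. Without both of them the log2 fold change was -0.25 (edgeR adjusted p = 0.183). The mature protein acts as a hexamer with TIMM9, and Timm9 showed no such difference, with 27.1 to 29.2 CPM against 25.7 to 33.5 CPM and a log2 fold change of -0.02 ± 0.08 (SE; edgeR adjusted p = 0.936). No other gene of the count table overlaps Timm10. No annotated transcript of another gene matched it at 95% identity or more over at least 200 bases. Shorter, more diverged or unannotated copies were not sought.

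The promoter window of Timm10 is shown because this gene carries the only called difference among the members. It is taken from RefSeq (GRCm38.p6, chr2:84826771-84827070, plus strand) and runs from 250 bases before the start to 50 after it. Capitals mark letters CCGGAAG or their reverse complement, the core that GABPA and other ETS factors are known to bind, and CACGTG, the E-box core known for MYC.

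Timm10: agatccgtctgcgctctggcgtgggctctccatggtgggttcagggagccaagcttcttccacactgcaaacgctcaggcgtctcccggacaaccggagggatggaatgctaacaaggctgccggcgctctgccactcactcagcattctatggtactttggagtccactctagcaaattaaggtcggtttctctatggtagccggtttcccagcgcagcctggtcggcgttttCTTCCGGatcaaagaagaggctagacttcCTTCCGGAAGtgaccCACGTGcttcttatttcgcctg

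The window holds the GABPA letters 3 times, once alone and once on each strand of a palindrome. No binding was measured in these data.

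The other small TIM genes gave values but no call. Timm13, which forms a chaperone with TIMM8, had 46.5, 46.9, 43.2 and 41.7 CPM with antibody and 47.7, 49.98, 53.9 and 45.7 CPM without. Only replicate 4 without antibody lies inside the antibody range, and the fold change was -0.14 ± 0.06 (log2, SE; edgeR adjusted p = 0.183). Timm8b and Timm8a1, its possible partners, gave log2 fold changes of 0.11 and -0.09, in opposite directions and with intervals that include no change. Timm22, the carrier channel, gave -0.07, with 28.0 to 30.1 CPM against 29.2 to 34.7 CPM. Timm10b, which docks the chaperones on the channel, was at 5.60, 7.05, 5.92 and 5.77 CPM with antibody and at 8.57, 4.41, 4.87 and 6.504 CPM without. Its libraries without antibody lie on both sides of the other arm, so its log2 fold change of -0.03 ± 0.16 (SE) is among the least precise. Timm8a2 had 1 count in 1 antibody library and was not tested.

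**Figure D2:**
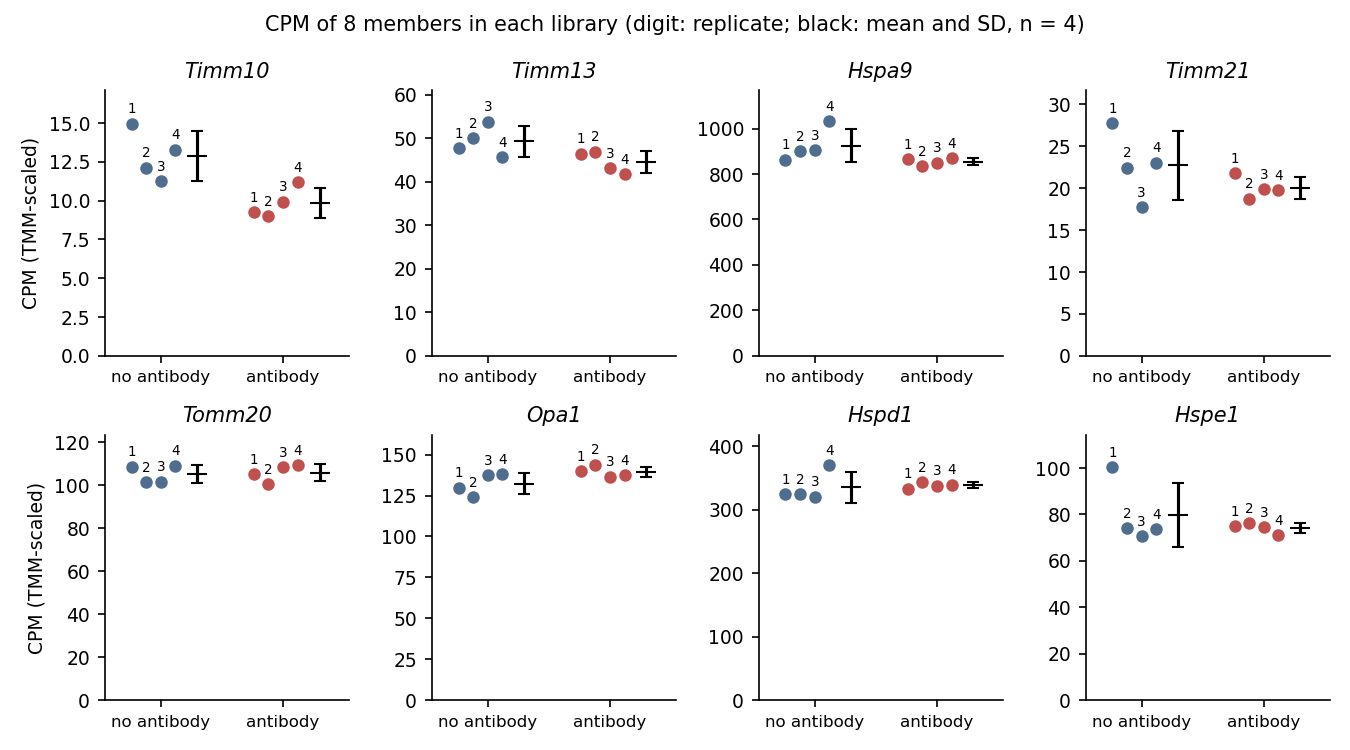
TMM-scaled CPM of 8 members in each library (vertical axes from 0; digits are replicate numbers, black bars the mean and SD, n = 4). The antibody points of Timm10 lie below the others by a narrow margin (11.21 against 11.24 CPM), and single libraries without antibody stand high for Hspe1 (100.4 CPM), Hspd1 (370.3 CPM) and Hspa9 (1032 CPM).

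Fusion and fission genes did not pass the test in either direction. Opa1, the dynamin-like GTPase that fuses the inner membrane and shapes cristae, had 139.9, 144, 137 and 137 CPM with antibody and 129.7, 124, 138 and 138 CPM without. Antibody replicates 1 and 2 lie above all libraries without antibody, and replicates 3 and 4 lie within their range (log2 fold change 0.07 ± 0.05, SE; edgeR adjusted p = 0.401). The mitofusins of the outer membrane were at 83.4 to 93.0 against 81.7 to 87.3 CPM (Mfn1) and at 52.6 to 58.7 against 52.1 to 60.7 CPM (Mfn2). Dnm1l, which encodes the fission GTPase DRP1, had 156 ± 5 CPM with antibody and 155 ± 10 CPM without (SD, n = 4). Its 95% interval ran from 0.929-fold to 1.08-fold (edgeR adjusted p = 0.998).

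Mff, the main receptor for DRP1 on the outer membrane, had 77.8, 85.9, 85.3 and 78.7 CPM against 90.3, 84.8, 87.2 and 86.9 CPM. Replicates 1 and 4 with antibody were the lowest of the 8 libraries, and the log2 fold change was -0.09 ± 0.05 (SE; edgeR adjusted p = 0.302). Fis1, an adaptor with a lesser role in fission in mammals, gave 0.04. The proteases that cut OPA1 gave log2 fold changes of 0.12 ± 0.08 for the stress-activated Oma1 and 0.02 ± 0.05 for Yme1l1 (SE; edgeR adjusted p = 0.414 and 0.851). All 8 fusion, fission and protease genes had intervals within 1.25-fold of no change.

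The matrix chaperones include the pair of members with the highest levels per length, Hspa9 and Hspd1. Hspa9 encodes mtHsp70 (mortalin), the motor protein that pulls precursors into the matrix. It had 866, 835, 850.0 and 869 CPM with antibody and 862, 900.2, 906 and 1032 CPM without. Replicate 1 without antibody lies within the antibody range and replicate 4 far above it, and the fold change was -0.11 ± 0.05 (log2, SE; edgeR adjusted p = 0.217). Leaving out replicate 1 without antibody turned this into a call (log2 fold change -0.15, edgeR adjusted p = 0.0266).

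Hspd1 and Hspe1 encode HSP60 and HSP10, the barrel and lid of the folding chamber. Hspd1 was at 333, 344, 338 and 339 CPM against 325, 325, 320.2 and 370.3 CPM, so that 3 of the 4 libraries without antibody lie below all antibody libraries and 1 above them. Hspe1 had 75.0, 76.1, 74.4 and 71.1 CPM against 100.4, 74.1, 70.7 and 73.7 CPM, with replicate 1 without antibody far above the remaining 7 libraries. The log2 fold changes were 0.01 ± 0.05 and -0.11 ± 0.08 (SE; edgeR adjusted p = 0.91 and 0.475). The libraries that stood high thus differed between these partner genes, replicate 4 for the barrel and replicate 1 for the lid.

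Both genes lie head to head on chromosome 1 and share a promoter region. RefSeq gives Hspe1 a start at 55088148 on the plus strand and Hspd1 starts at 55088243 and 55087932 on the minus strand (GRCm38.p6). One of the Hspd1 starts therefore lies 95 bases inside Hspe1 and the other 216 bases upstream of it. The window of Hspe1 (chr1:55087898-55088197, plus strand) is shown because it covers the Hspe1 start and the Hspd1 start at 55087932. The Hspd1 start at 55088243 lies outside it, and the window of that start is not shown. Capitals mark TTCTAGAA, which has the inverted TTC and GAA letters known from heat shock elements, and the palindrome that holds the GABPA letters on both strands.

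Hspe1: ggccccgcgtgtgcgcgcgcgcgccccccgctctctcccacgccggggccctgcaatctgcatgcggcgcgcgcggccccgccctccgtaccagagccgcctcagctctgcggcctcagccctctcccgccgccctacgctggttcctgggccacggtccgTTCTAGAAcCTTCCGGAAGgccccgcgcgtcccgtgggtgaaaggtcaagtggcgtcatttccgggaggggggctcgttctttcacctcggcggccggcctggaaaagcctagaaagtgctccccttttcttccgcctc

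The regulators of biogenesis stayed without a call. Tfam, which packages mitochondrial DNA and starts its transcription, had 80.7, 74.2, 77.8 and 73.9 CPM against 84.0, 72.4, 68.8 and 81.7 CPM. The libraries without antibody spread over a wider range that contains all antibody libraries, and the log2 fold change was -0.01 ± 0.06 (SE; edgeR adjusted p = 0.967). Ppargc1a, the coactivator PGC-1α, had 19.7, 22.3, 21.0 and 24.0 CPM against 20.7, 20.3, 17.8 and 21.3 CPM (log2 fold change 0.11 ± 0.08, SE; edgeR adjusted p = 0.458). Ppargc1b, its relative PGC-1β, was near the low end of what these libraries resolve, with 1.801, 1.52, 1.51 and 2.01 CPM against 1.32, 1.40, 1.69 and 1.10 CPM. The arms overlap, and the interval of its fold, 0.902 to 1.76, is the widest of all members (edgeR adjusted p = 0.448). The 13 mitochondrially encoded mRNAs, which TFAM helps to transcribe, had a median log2 fold change of -0.16 with 0 called and 2 at an unadjusted p under 0.05 in edgeR. Their share of counts was 6.21% in replicate 1 without antibody and 4.10% to 4.55% in the rest of that arm. With antibody it was 3.94% to 4.77%, so only replicate 1 without antibody lay above the antibody range.

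Levels can be compared between genes only per length, and the authors' RPKM (counts scaled to gene length and library total) serve for that. Over all 8 libraries Hspa9 was highest with a mean of 226 RPKM, followed by Hspd1 with 127, Tomm70a with 70.1, Tomm22 with 67.3, Timm8b with 61.2 and Hspe1 with 52.1 RPKM. These 6 exceeded 50 RPKM, 22 members lay between 10 and 50, and 7 were under 10. At the low end were Timm8a1 with 7.92, Ppargc1a with 3.14, Timm23 with 2.63, Timm10b with 1.49 and Ppargc1b with 0.387 RPKM. Of the 34 pairs of neighbours in this order, 27 overlapped in their range over the 8 libraries, so most neighbouring ranks are not distinguished. Steps without overlap, 7 in all, were Hspa9 over Hspd1, Hspd1 over Tomm70a, Fis1 over Yme1l1 and Tomm40 over Tomm20. The others were Mff over Tomm34, Timm8a1 over Ppargc1a and Timm10b over Ppargc1b. Near-identical copies, described below, held 48.8% of the common counts for Hspd1 and 46.2% for Tomm20. The order of Hspa9 and Hspd1, and that of Tomm40 and Tomm20, is therefore uncertain despite the lack of overlap.

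Members grouped under 1 complex differed widely in RPKM. Among the tested TOM members the range ran from 70.1 for Tomm70a to 11.3 for Tomm40l, with Tomm20 at 21.1. In TIM23 Timm17a stood at 29.7 RPKM, Timm50 at 15.5 and Timm23 at 2.63. Among the small TIM genes Timm8b had 61.2, Timm13 38.3, Timm9 27.7 and Timm10 13.9 RPKM, although TIMM9 and TIMM10 act as partners. The value of Timm23 is one to read with care, because near-identical copies of it also hold counts, as described next. Whether reads of Timm23 were assigned to these copies was not tested.

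**Figure D3:**
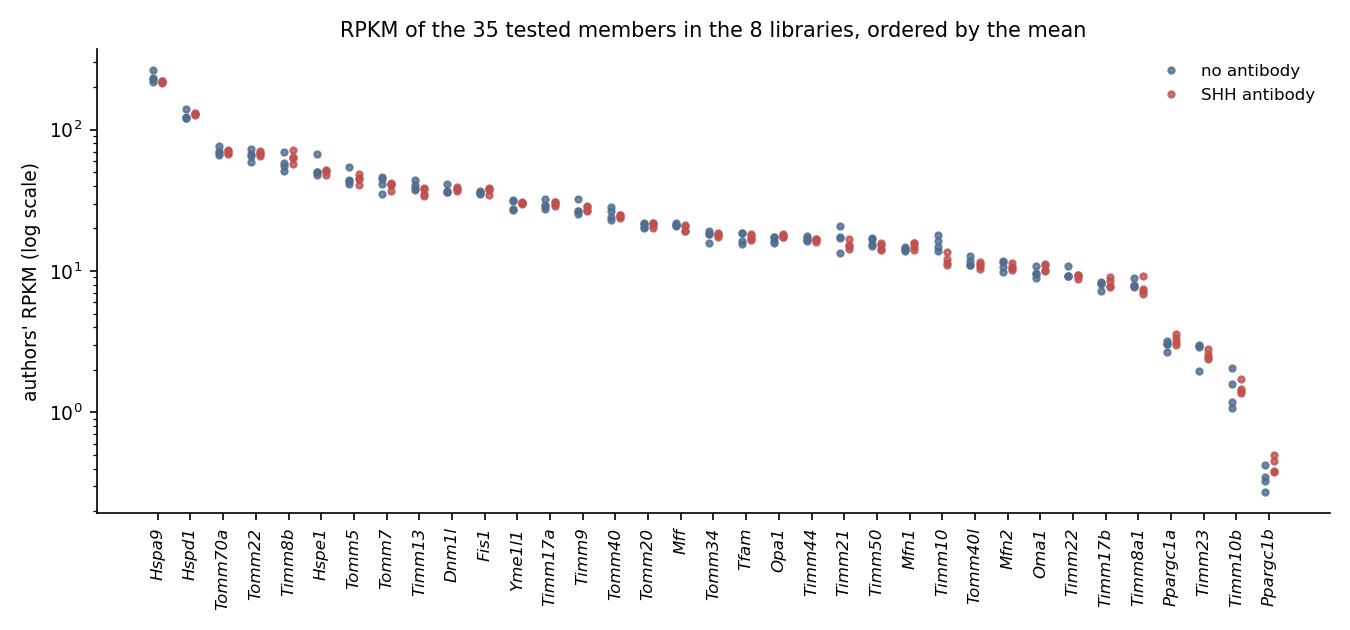
Authors' RPKM of the 35 tested members in the 8 libraries (log axis), ordered by the mean, with libraries without antibody in blue and with antibody in red. Levels run from 226 RPKM for Hspa9 to 0.387 RPKM for Ppargc1b, and red and blue points of a gene overlap except for Timm10.

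Several members share sequence with near-identical copies elsewhere in the genome, mostly processed pseudogenes. Transcripts of 8 members matched 14 other genes of the count table at 95% identity or more over at least 200 bases. Hspd1-ps3 matched Hspd1 at 99.0% identity over 1722 bases and was listed with 35294 counts, beside 37020 for Hspd1 itself, so 48.8% of their common counts stood under the pseudogene. For Tomm20 and its 3 copies this share was 46.2%, nearly all in Gm14494 (99.5% identity over 435 bases). Gm9797, which is identical to Timm8a1 over 612 bases, held 49.3% of the counts of the pair.

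Timm23 had fewer counts (517) than its 5 copies together (569). Gm10171 and Gm10233 were identical to it over 628 bases and Gm10273 matched at 99.9% over 1121 bases. Timm17a and Tomm22 had 1 copy each, with 16.3% and 9.9% of the counts of the pair, and the copies of Hspa9 and Yme1l1 held 0.175% and 0.0607%. A copy of Hspe1 in the GENCODE vM21 annotation (99.0% identity over 515 bases) was not analysed here. How the authors assigned reads that fit several places is not stated, so the levels of Hspd1, Tomm20, Timm8a1 and Timm23 are uncertain. None of the tested copies was called, and Gm14494 came nearest with a log2 fold change of -0.17 (edgeR adjusted p = 0.0723). Adding the counts of the copies to their member left Timm10 as the only called member. For Tomm20 the parent gene (0.01) and its main copy (-0.17) thus gave unlike log2 values, a difference that was not tested.

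**Figure D4:**
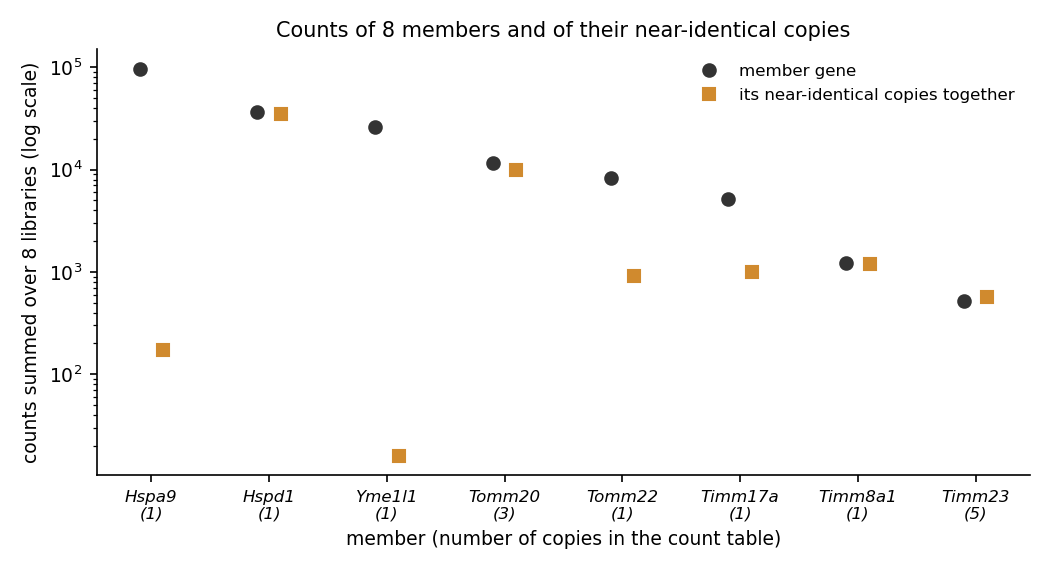
Counts summed over the 8 libraries (log axis) for 8 members and for their near-identical copies in the count table, whose number stands in brackets under each name. Member and copies are nearly level for Hspd1, Tomm20, Timm8a1 and Timm23, and far apart for Hspa9 and Yme1l1.

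Overlapping genes are a second source of doubt. Timm10b lies for 96.8% of its span within Dnhd1 on the same strand, and Dnhd1 itself had 251 and 172 counts in the sums of the arms. Timm21 lies wholly within Fbxo15 and Tomm40l for 61.5% within Nr1i3, both on the opposite strand. Fbxo15 had 17 counts in the sum of each arm, and Nr1i3 had 7 with antibody and 4 without. The libraries keep strand, but whether the counting used it is not given in the sources used here. Hspd1 and Hspe1 overlap by 112 bases on opposite strands, which is 3.53% of the span of Hspe1.

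Spread within the arms differed for nearly all members. The median coefficient of variation of the members' CPM was 4.79% with antibody and 7.74% without, and it was larger without antibody for 29 of the 35. Over all genes the biological coefficient of variation from edgeR was 3.25% and 7.01%, so the pattern is common to the whole table. In the arm without antibody, replicate 1 was the highest library for 15 members and replicate 4 for 11, while replicates 2 and 3 were each the lowest for 13.

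The 15 members that were highest in replicate 1 without antibody were 7 of the 10 members under 1500 bases, a limit set after the values were seen, and 8 of the 25 longer ones. The 10 short members had a median log2 deviation of 0.31 from the other 3 libraries of the arm. Among the 7 were Hspe1, Timm21, Timm8b, Tomm5, Timm9 and Timm10. The 25 longer members had a median deviation of 0.03, although Timm10b, with 4087 bases, had the largest of all. Across the 35 members the deviation and the gene length had a Spearman correlation of -0.42 in this library, and across all 13626 genes -0.14. Correlations of this size were not particular to it: over the members antibody replicates 3 and 4 gave -0.40 and 0.39, and over all genes antibody replicate 1 gave -0.19. The short members of those 3 libraries had median deviations of 0.01, -0.06 and 0.02, in the same order. Within a library the members share depth and preparation, and the part of this pattern in the Timm10 call was not tested beyond the fits without that library given above.

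**Figure D5:**
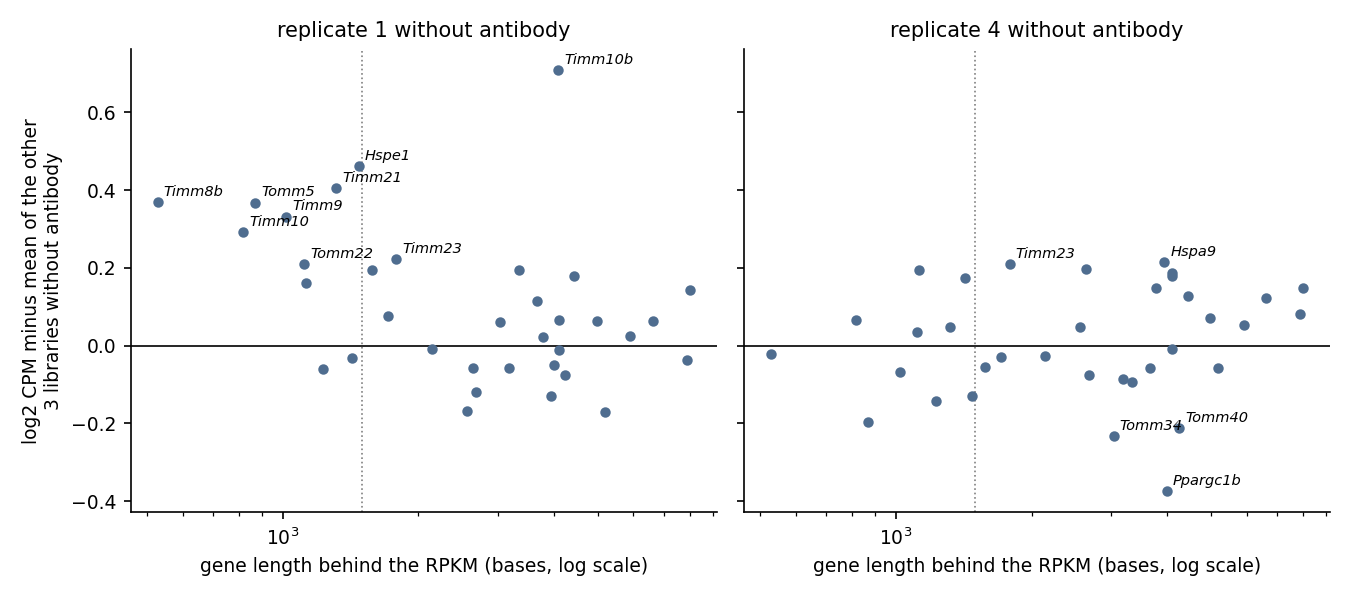
Deviation of replicate 1 (left) and replicate 4 (right) without antibody from the mean of the other 3 libraries of that arm (log2 CPM, vertical axis) against gene length (bases, log axis) for the 35 members. In replicate 1 most members left of the dotted line at 1500 bases lie above 0, Timm10 among them, with a median of 0.31 against 0.03 to the right; replicate 4 shows no such split, at 0.01 and 0.05.

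Many members have the GABPA letters in their promoter. RefSeq windows were matched for 33 of the 38 members, 41 windows in all, and Hspa9, Timm21, Tomm40l, Tomm7 and Ppargc1b had no match. CCGGAAG was found on either strand in 17 windows (41.5%) of 15 members, where 8.86% of all 32851 RefSeq windows and 17.4% of the 11845 windows of tested genes hold it. Windows of Hspd1 and Hspe1 overlap, as do those of Tomm34, so some sites were counted more than once. The 41 member windows include those of Timm8a2, Tomm20l and Tomm6, which were not tested. The 14 tested members with these letters had a median log2 fold change of 0.00 and the 16 without -0.04. The windows below show the letters in capitals with 10 bases on each side, turned so that the match reads 5′ to 3′. They are shown because they join members of every role: import, fusion, fission, proteolysis, folding and transcription. Coordinates are those of the promoter window on GRCm38.p6, with the strand of the gene.

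Timm10 (chr2:84826771-84827070, plus): agacttccttCCGGAAGtgacccacgt
Timm8b (chr9:50603651-50603950, plus): gaagcgtgaaCCGGAAGgcaggagacg
Tomm22 (chr15:79670618-79670917, plus): cggctcgcttCCGGAAGacgctctgtc
Tomm70a (chr16:57121464-57121763, plus): ccttctgaccCCGGAAGtggttctccc
Mfn1 (chr3:32529232-32529531, plus): atccgaagcgCCGGAAGtagccgcccc
Fis1 (chr5:136953025-136953324, plus): gaggcaccacCCGGAAGttcaggcttc
Yme1l1 (chr2:23156255-23156554, plus): gaggcttgctCCGGAAGcactgtacct
Hspe1 (chr1:55087898-55088197, plus): ctagaaccttCCGGAAGgccccgcgcg
Tfam (chr10:71237995-71238294, minus): ctgccgcggaCCGGAAGtccgggcttc

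Timm10, Tomm22 and Hspe1 share the bases CTT before the core, so that the core can be read on both strands of these stretches. Gabpa, the gene of the factor, was at 116 ± 5 CPM with antibody and 111 ± 7 CPM without (SD, n = 4; edgeR adjusted p = 0.49). Other letters searched on both strands were TTCNNGAA (heat shock factors) in 22% of member windows against 6.82% of windows of tested genes, and CACGTG in 14.6% against 9.99%. GCATGCGC (NRF1) was found in 4.88% against 5.23%, GATGGCGG (YY1) in 2.44% against 3.5%, and TCAAGGTCA (ESRRA) in 2.44% against 0.312%. TTGCATCA, known from ATF4 and CHOP composite sites, was in 0 of 41 member windows and 0.566% of windows of tested genes. The palindrome of Timm10, Tomm22 and Hspe1 also fits TTCNNGAA, so these counts are not independent. Matching letters are a description of sequence and no measure of binding.

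Other genes of the same processes, in 7 lists chosen with earlier results of these data known, were read in the same fit. Together 91 of 99 listed genes were tested, and 1 was higher and 9 lower with antibody. In both directions together this is 11%, which is near the 8.4% of all genes tested. By direction the split differed, since 4.53% of all genes were called higher and 3.87% lower. Log2 fold changes were positive for 33 and negative for 58 of the 91 genes. This skew was not tested, and 4 of the 9 lower calls came from the list of mitochondrial stress regulators. The import motor, processing peptidases and sorting machinery (20 tested, among them Grpel1, Pmpcb, Samm50 and Chchd4) had 0 calls in edgeR and 0 at an unadjusted p under 0.05, with a median log2 fold change of -0.05. The cristae organizing genes (6 tested) also had 0 calls, with 2 at an unadjusted p under 0.05.

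Matrix and inner membrane quality control (12 tested) had 2 genes that fell. Lonp1, the LON protease that degrades damaged matrix proteins, was at 280.1, 269, 254 and 282 CPM with antibody and at 323, 325, 325 and 338 CPM without. The arms are clearly separate (log2 fold change -0.27 ± 0.05, SE; edgeR adjusted p = 0.000488). Clpp, the proteolytic subunit of the other soluble matrix protease, had 39.4 to 44.3 CPM against 43.0 to 54.0 CPM, with overlap in replicate 1 of each arm (log2 fold change -0.23 ± 0.07, SE; edgeR adjusted p = 0.0393). Its partner Clpx gave 0.08 (edgeR adjusted p = 0.521). The call of Clpp was lost without antibody replicate 2, 3 or 4 or without replicate 2 or 3 of the other arm (edgeR adjusted p = 0.0845 to 0.133), and on log2 RPKM with either pseudocount (limma adjusted p = 0.124 and 0.123).

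Regulators of the mitochondrial stress response were called lower for 4 of 8 tested, where 3.87% of all genes tested were called lower. This list too was chosen with earlier results of these data known, so its share is a description only. Atf5, a factor that is normally imported and acts in the nucleus when import is impaired, was at 81.9, 70.4, 64.4 and 73.3 CPM with antibody and at 90.6, 110.0, 112 and 124 CPM without (log2 fold change -0.59 ± 0.08, SE; edgeR adjusted p = 2.64e-05). Ddit3 (CHOP) gave -0.57 ± 0.08 and Atf4, the central factor of the integrated stress response, -0.31 ± 0.05 (log2, SE; edgeR adjusted p = 5.03e-05 and 0.0005). Cebpb, a partner of CHOP, gave -0.34 ± 0.07 (edgeR adjusted p = 0.00227). For these 4 genes every antibody library lay below every library without antibody. The margin was narrow for Cebpb, at 43.2 CPM in antibody replicate 1 against 43.6 CPM in replicate 1 without antibody. Hspd1, Hspe1 and Hspa9, the chaperones known as readouts of that response, were not called in the same libraries, whereas Lonp1 was, and the difference between these genes was not tested.

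The remaining calls were single genes. Tefm, the elongation factor of mitochondrial transcription, had 10.9, 13.1, 12.2 and 12.4 CPM against 16.4, 13.2, 16.9 and 16.2 CPM and fell by 0.37 on the log2 scale (edgeR adjusted p = 0.0153; 0.0603 without antibody replicate 1 and 0.06 without replicates 1 and 4 of the other arm). Mtfr1, which promotes fission, fell by 0.14 on the log2 scale (edgeR adjusted p = 0.0478). Among biogenesis regulators Pparg, a nuclear receptor that PGC-1α coactivates, rose from 34.7 ± 1.4 to 46.9 ± 2.5 CPM (SD, n = 4; log2 fold change 0.44 ± 0.06, SE; edgeR adjusted p = 3.98e-05), and Ppard fell by 0.21 on the log2 scale (edgeR adjusted p = 0.046). The calls of Mtfr1 and Ppard were lost without any 1 antibody library and without replicate 3 or 4 of the other arm, that of Ppard also without replicate 2. Neither was called on log2 RPKM or after thinning to the smallest library total, and Mtfr1 was also lost without a filter on low counts (edgeR adjusted p = 0.103) and Ppard with limma voom (adjusted p = 0.0592). Atf4, Atf5, Cebpb, Ddit3, Lonp1 and Pparg were called in all 21 alternative fits.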

How the data were processed

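Per the labels' protocols, polyA RNA of sorted cancer cells was made into strand-specific libraries and read from both ends. Base calls came from CASAVA 1.8.2 and alignments to GRCm38 from TopHat2 2.0.9, per the submitters' processing notes. For the counting step no tool, annotation or strand setting is given in the sources used here. Raw counts per gene and RPKM values were deposited by the authors for all 8 libraries. These RPKM equal the count divided by gene length and column total for 12746 genes checked (lengths whole within 1.38e-10 bases).

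Samples were grouped by the treatment label. One item of the labelled genotype is not reported here. The test was run on counts in edgeR 4.0.16 under R 4.3.3 (TMM, filterByExpr, quasi-likelihood F test, arm as the only term, Benjamini-Hochberg adjustment over 13626 genes at 0.05). A count of 3 corresponds to 0.191 to 0.30 CPM, and this covers counting error only. Library measures were compared by exact permutation. Copies were sought by aligning GENCODE vM21 transcripts, and promoters came from RefSeq. Alternatives were other scalings and filters, a replicate block, DESeq2 1.42.0, limma 3.58.1 (voom, with and without sample weights, and log2 RPKM with pseudocounts 1 and 0.1), thinning to the smallest total and leaving out each library. Leaving out replicates 1 and 4 without antibody together, and adding the counts of copies, were chosen after seeing the data. The procedure was tested on simulated counts. All members are reported by role, and the members and lists were chosen with earlier results of these data known. Same-numbered libraries of the arms did not deviate together, so the numbers do not pair them.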

Additional observations from a re-analysis of the deposited data

Results flagged for a closer look

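In 4 of 74 groups of 4 libraries, 1 library lay further from the others than Dixon's criterion at 95% allows, where chance alone gives about 1 in 20 (5%). All 4 belong to the arm without antibody. Hspd1 reached 370.3 CPM in replicate 4, with the nearest library at 324.8 CPM. Hspe1 reached 100.4 CPM in replicate 1, with the nearest at 74.11 CPM. Timm22 reached 34.65 CPM in replicate 2, with the nearest at 29.77 CPM. Timm23 was lowest in replicate 2, at 3.505 CPM, with the nearest at 5.152 CPM. The cause of these values was not tested.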

How the results depend on the processing

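Timm10 was the only called member under 11 of 13 settings other than leaving out 1 library, and its log2 fold change kept its sign in all 21 alternatives. It was lost after thinning to the smallest total (0 members lower, log2 fold change -0.40, edgeR adjusted p = 0.0513), where fewer counts are left. Leaving out 1 library at a time gave 0 to 1 members lower, a members' median between -0.05 and 0.01, and for all genes 369 to 756 higher and 305 to 729 lower. Without replicates 1 and 4 of the arm without antibody, 2 members were higher (Timm8b 0.25, Yme1l1 0.14) and 3 lower (Timm13 -0.22, Timm50 -0.20, Tomm40 -0.18; log2, edgeR adjusted p = 0.00577 to 0.0319), the median was 0.055, related genes gave 2 higher and 12 lower (Tefm lost), and all genes gave 1121 higher and 1142 lower (16.3% of those tested). These calls rest on 2 libraries without antibody. Voom with sample weights called 853 of all genes higher and 810 lower. The test on log2(RPKM + 1) called 386 higher and 289 lower, and that on log2(RPKM + 0.1) called 380 and 290. The cause of these shifts was not tested. With the replicate number as a block Timm10 stayed called (log2 fold change -0.39, edgeR adjusted p = 0.0289), 0 members were higher, and 547 of all genes were called higher and 458 lower. Of the related genes the block ended the call of Mtfr1 only (edgeR adjusted p = 0.0784). Same-numbered libraries had correlations of deviations between -0.0285 and 0.00662, so the numbers mark no pairs. Ppargc1b, Timm10b and Timm23, which had few counts, also had the largest standard errors of the members, and the cause was not tested. In the arm without antibody Timm10b had the largest coefficient of variation of the members as well, at 30.95%. Tomm6, Timm8a2 and Tomm20l had too few counts to be tested.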
